A study of Mus musculus with 10 samples.

Results

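The genes described here mark sympathetic nerves and growing axons. They are Dbh, Th, Npy, Ngfr, Gap43, Sprr1a, Tubb3, Stmn2 and Uchl1, taken by name from the deposited count table, and they are 9 of its 40690 genes. They were read in the ventricles of male C57BL/6 mice aged 10 weeks, in 2 groups of 5. The first group had a sham operation for ischemia-reperfusion, which is the surgical control for closing and reopening a coronary artery. The second group was naive and had no operation. No transgene or other agent is named for either group, all 10 libraries came from whole ventricular tissue, and the sources used here do not give the time since surgery. Of the 9 genes, 7 held enough counts to be tested between the groups, and Th and Npy did not.

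Sympathetic nerves reach the ventricles as long axons whose cell bodies lie in ganglia outside the heart. The ventricle therefore holds little of the RNA that the neurons make, and a gene of this set that is measured here may come from axons, from the Schwann cells that wrap them, or from heart cells that use the same gene. Noradrenaline is made from tyrosine by tyrosine hydroxylase (Th), Dopa decarboxylase (Ddc) and dopamine beta-hydroxylase (Dbh), and it is released together with neuropeptide Y (Npy). Neurotrophins made by the target tissue keep sympathetic axons alive, and the p75 receptor Ngfr is one of their receptors. When a peripheral axon is cut and grows again, its neuron raises genes such as Gap43 and Sprr1a.

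Every sham library lay above every naive library for Sprr1a, Ngfr, Npy and Tubb3, as for 13.6% of all tested genes (Npy was not tested and had only 2 counts in sham 1). Their upstream sequences are therefore shown. They are RefSeq sequences on GRCm38.p6, from a table that matched 7 of the 9 genes, and each is written 5′ to 3′ on its own strand and ends at the base before the GENCODE gene start. The windows are chr3:92485896-92486131 on the minus strand for Sprr1a, chr11:95587736-95587948 on the minus strand for Ngfr, chr6:49822460-49822709 on the plus strand for Npy and chr8:123411303-123411423 on the plus strand for Tubb3. Capitals mark matches, on either strand, to the AP-1 motif TGANTCA, the TATA box TATAAA and the GC box GGGCGG. The CRE motif TGACGTCA and the C/EBP motif TTGCNNAA were also searched and had no match in these windows. No matched bases of 2 motifs overlapped.
Sprr1a: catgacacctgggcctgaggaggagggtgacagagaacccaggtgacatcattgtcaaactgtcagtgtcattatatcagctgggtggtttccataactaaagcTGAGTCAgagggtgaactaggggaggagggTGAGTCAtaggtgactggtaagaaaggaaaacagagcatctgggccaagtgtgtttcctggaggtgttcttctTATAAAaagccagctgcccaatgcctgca
Ngfr: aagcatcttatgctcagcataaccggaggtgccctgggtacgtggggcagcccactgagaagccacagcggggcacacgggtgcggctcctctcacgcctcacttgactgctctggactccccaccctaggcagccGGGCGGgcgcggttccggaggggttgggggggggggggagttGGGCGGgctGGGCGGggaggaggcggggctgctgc
Npy: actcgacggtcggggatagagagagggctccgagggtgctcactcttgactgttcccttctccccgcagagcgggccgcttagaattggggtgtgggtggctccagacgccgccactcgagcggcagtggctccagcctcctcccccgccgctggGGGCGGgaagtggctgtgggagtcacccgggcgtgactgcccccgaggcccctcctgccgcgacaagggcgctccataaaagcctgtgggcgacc
Tubb3: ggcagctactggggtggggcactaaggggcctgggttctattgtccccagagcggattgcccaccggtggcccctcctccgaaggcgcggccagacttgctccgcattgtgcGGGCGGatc

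The Sprr1a window of 236 bases held 2 AP-1 matches, which began 132 and 102 bases before the gene start, and a TATA box that began 29 bases before it. Of 32851 RefSeq windows of the same length, 6.50% held an AP-1 match and 11.9% a TATA box. The Ngfr window of 213 bases held 3 GC boxes, beginning 77, 35 and 26 bases before the start, where 27.4% of windows of that length held at least 1. The Npy window of 250 bases held 1 GC box, 95 bases before the start, where 32.7% of windows of that length held one, and the Tubb3 window of 121 bases held 1 that began 9 bases before the start, where 12.9% did. All windows compared began 250 bases before a RefSeq start and were cut to the stated length. The shorter windows of other genes therefore leave out the bases nearest their starts. The 12.9% for Tubb3 and the 27.4% for Ngfr are thus not shares for the bases next to a start. The motif matches describe the letters and do not show that any factor binds there.

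Library totals ran from 10654107 to 21537135 counts in sham and from 9683181 to 17577906 in naive libraries. Values are in CPM, counts scaled to a common library size with TMM factors, and 3 counts stood for 0.122 to 0.260 CPM in sham and 0.185 to 0.357 CPM in naive libraries, counting error only. Sham 4 and, to a lesser degree, sham 5 stood apart in transcripts of brain cells. Of 16 brain markers listed after this was seen, 13 had their highest level in sham 4. The 6 markers with enough counts to be tested included 0 higher and 2 lower in sham (Slc17a7 and Camk2a), with 32.7% of all genes called. The summed level of all 16 was 117 to 197 CPM in sham and 166 to 200 CPM in naive libraries, most of it from Camk2a and Slc17a7. The 10 markers too low to test summed to 782 counts in sham 4 and 141 in sham 5, against 24, 28 and 29 in sham 1, 2 and 3 and 21 to 40 in naive libraries. Among them Sncb, a synuclein of neurons, had 148 counts in sham 4 and 26 in sham 5, against 2, 2 and 1 in sham 1, 2 and 3 and 0 to 3 in naive libraries. Mobp, of central myelin, had 134 counts in sham 4, against 3 to 14 in naive libraries. Gad1, which makes GABA, had 29 counts in sham 4 and 3, 6, 0 and 2 in sham 1, 2, 3 and 5, against 0 to 2 in naive libraries. Results that could rest on sham 4 or sham 5 are therefore also given without them, a choice made after seeing the data.

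**Figure D1:**
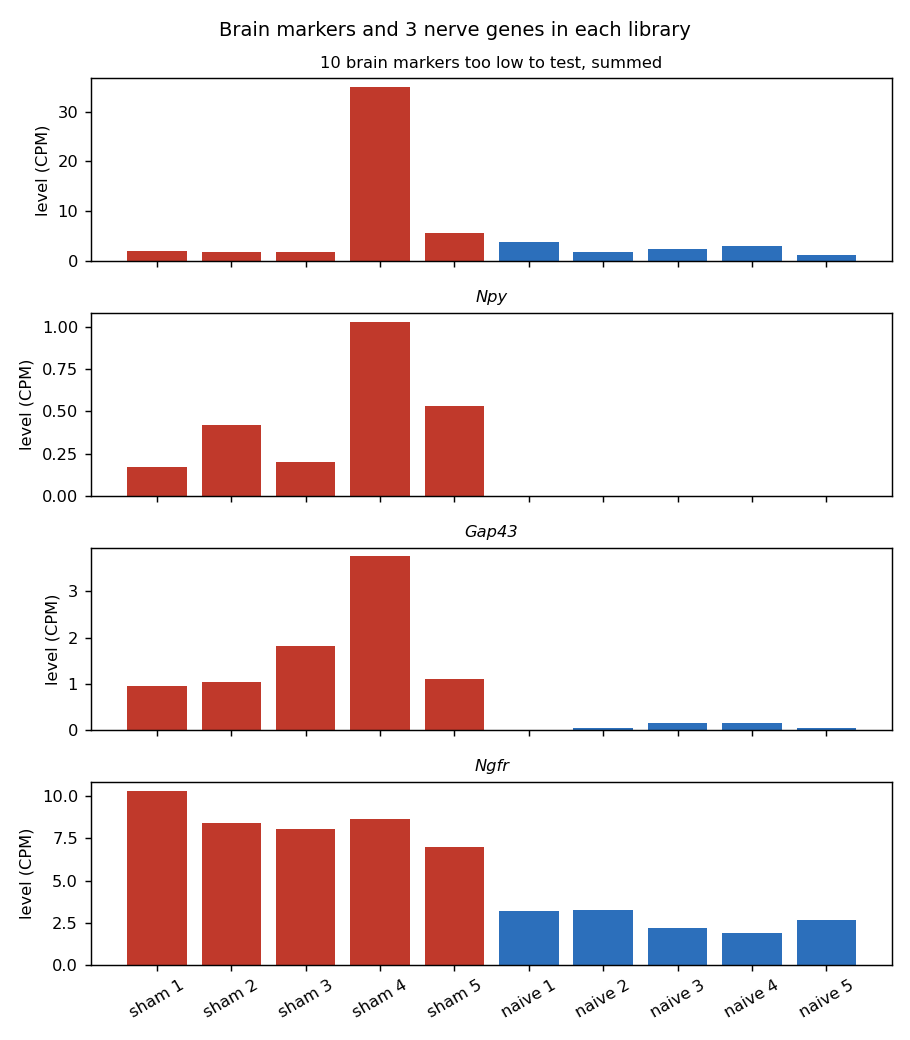
Bars give the level in each library (CPM) for 10 summed brain markers that were too low to test, and for Npy, Gap43 and Ngfr, with sham libraries in red at the left and naive libraries in blue at the right. The brain markers peak in sham 4 at 34.9 CPM, with 5.75 CPM in sham 5, while Ngfr is highest in sham 1 at 10.3 CPM.

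Sham ventricles held more Sprr1a, Gap43, Tubb3 and Ngfr RNA than naive ventricles and less Dbh RNA. The fold was about 20.3 for Sprr1a, 18.0 for Gap43, 5.19 for Tubb3 and 3.20 for Ngfr, and Dbh fell to 0.564 of its naive level. Uchl1 was higher by a factor of 1.43, a call that single libraries decided, and Stmn2 did not pass the test. Npy was counted in each sham library and in no naive library, and Th stayed at 0 to 6 counts in every library. In the fit over all 13622 tested genes, 17.2% were higher and 15.5% lower in sham libraries at an adjusted p under 0.05 by edgeR's quasi-likelihood test with Benjamini-Hochberg adjustment. Of the 7 genes of this set in that fit, 5 were called higher and 1 lower. Gap43 and Sprr1a entered it through their sham libraries, so this count does not by itself show a shift of the set. When libraries were scaled by their size alone, 34.9% of genes were called, 94.0% of these calls were higher, against 52.6% with TMM factors, and the median log2 fold change of all genes moved by 0.26. The same 5 genes of the set were higher under that scaling, and 0 were lower. DESeq2 called 34.2% of genes and also 5 higher and 1 lower in the set. Without sham 4, 31.0% of genes were called, and without sham 4 and sham 5, 25.1%, and in each of these fits 4 genes of the set were higher and 1 lower. Since the tissue is bulk, fewer cells of a type and less RNA per cell cannot be told apart.

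**Figure D2:**
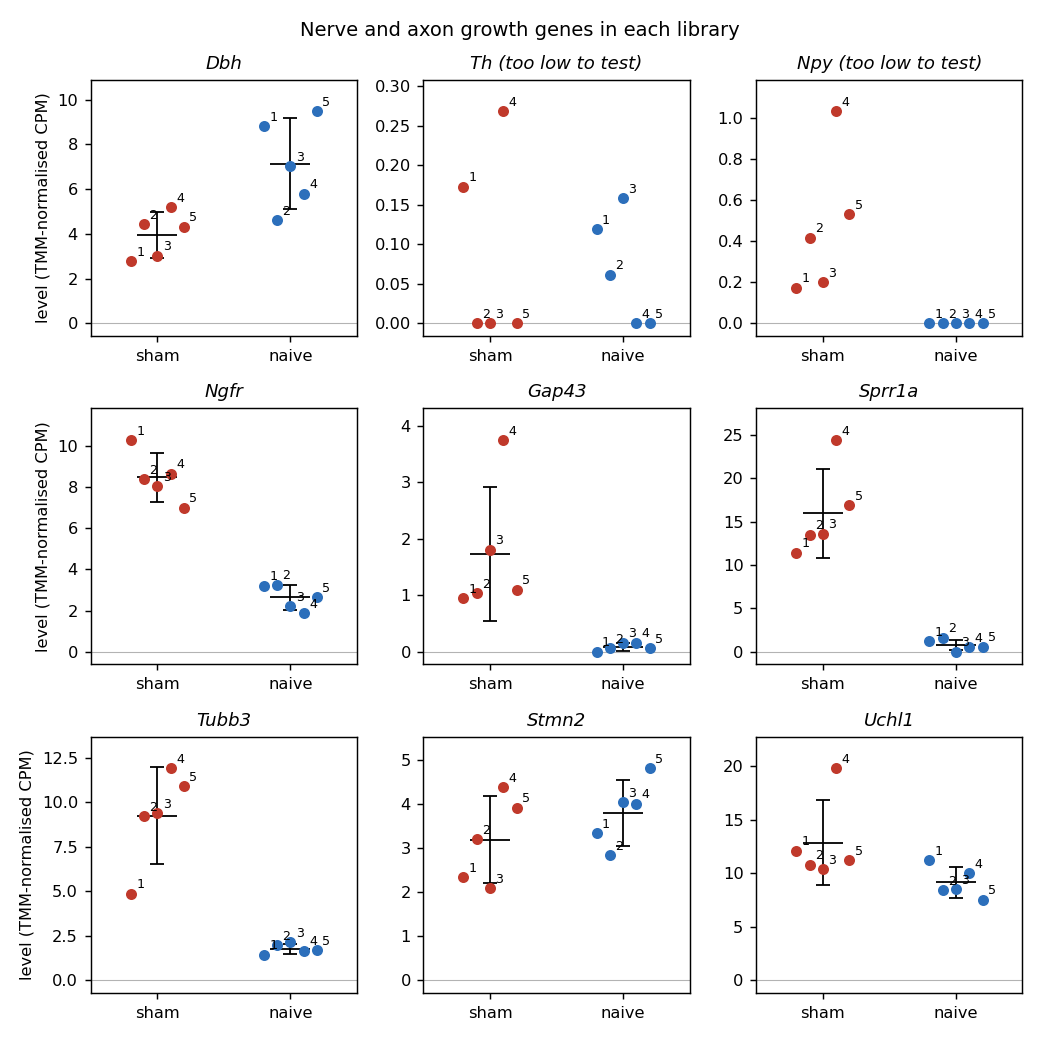
Points give the level of each gene (TMM-normalised CPM) in each library, numbered by replicate, with sham libraries in red at the left and naive libraries in blue at the right; black bars are the mean and SD of 5 libraries for tested genes. The groups do not overlap for Npy, Ngfr, Gap43, Sprr1a and Tubb3, and they overlap for Dbh, Th, Stmn2 and Uchl1. For Npy, sham 1 held only 2 counts, too few to resolve it from a single naive library at 0. Of all tested genes, which do not include Npy and Th, 13.6% have every sham library above every naive library.

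Dbh (ENSMUSG00000000889, GRCm38 chromosome 2, 27165233 to 27183200, plus strand) encodes the enzyme that turns dopamine into noradrenaline inside vesicles. Its levels were 2.77, 4.44, 3.02, 5.18 and 4.32 CPM in sham 1 to 5, against 8.80, 4.61, 7.03, 5.80 and 9.47 CPM in naive 1 to 5. All 5 sham libraries lay below the naive median, and sham 4 alone lay above the lowest naive library, naive 2, so the groups overlapped there, where 9.18% of all tested genes had every sham library below every naive library. The mean was 3.95 ± 1.02 CPM in sham and 7.14 ± 2.02 CPM in naive libraries (SD, n = 5 each). The log2 fold change was -0.83 ± 0.22 (SE, edgeR adjusted p = 0.00831), and it was -1.02 ± 0.26 without sham 4 and sham 5 (edgeR adjusted p = 0.0116). With library size alone it was -0.57 ± 0.22 and did not pass (adjusted p = 0.0570, over a range of 0.000188 to 0.0570 in 21 alternatives).

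Th (ENSMUSG00000000214, chromosome 7, 142892752 to 142931128, minus strand), the rate-limiting enzyme of the same pathway, was too low to test. It had 2, 0, 0, 6 and 0 counts in sham 1 to 5 and 1, 1, 2, 0 and 0 counts in naive 1 to 5, which gives 8 counts in sham and 4 in naive libraries. Sham 4 held 6 of the 8 sham counts. At this depth no difference in Th was detectable, and without a filter on low counts its edgeR adjusted p was 0.831.

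Npy (ENSMUSG00000029819, chromosome 6, 49822710 to 49829507, plus strand), the co-transmitter that constricts vessels, was also too low for the filter. It had 2, 6, 3, 23 and 13 counts in sham 1 to 5 and 0 counts in each naive library. These counts stand for 0.173, 0.417, 0.201, 1.03 and 0.530 CPM in sham 1 to 5. Every sham library was above every naive library by these counts, and sham 4 and sham 5 held most of them. Sham 1, at 0.173 CPM, was below the 0.185 to 0.357 CPM that 3 counts stand for in naive libraries. Depth therefore does not resolve sham 1 from a single naive library. Such a separation was found for 13.6% of the tested genes, but Npy is not among those. The 0 counts over the naive group allow up to 0.0455 CPM (3 counts over the group), so Npy was at least 11.8-fold higher in sham libraries, pooled. In sham 1, 2 and 3, where the brain markers were near their naive level, Npy had 11 counts, and was at least 5.92-fold higher than the same naive bound. Without a filter, where 14.5% of 30305 genes were called, its edgeR adjusted p was 1.23e-06. Npy is also abundant in brain, and the part of the brain transcripts in the counts of sham 4 and sham 5 was not tested.

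Among 15 other genes of the noradrenergic phenotype, 6 were tested, 1 rose, 1 fell and 4 did not pass, with a median log2 fold change of -0.26 against -0.05 for all tested genes. Over all tested genes 17.2% were higher and 15.5% lower. The list median was -0.17 without sham 3 and -0.13 without naive 3. Cyb561, which feeds electrons to Dbh in vesicles, rose by 0.62 ± 0.10 (edgeR adjusted p = 0.000164), and Hand2, a transcription factor of both sympathetic neurons and heart, fell by 0.52 on the log2 scale (SE 0.10, adjusted p = 0.000714). Ddc was at 2.75 ± 0.658 CPM in sham and 3.43 ± 0.560 CPM in naive libraries, which did not pass (adjusted p = 0.264). Gata3 had the largest fold change among those that did not pass, -0.67 ± 0.29 (adjusted p = 0.0926). The transporters Slc6a2, Slc18a1 and Slc18a2 were too low to test, as were Chga, Chgb, Scg2 and Isl1. Chga, a granule protein, had 3, 5, 11, 65 and 24 counts in sham 1 to 5 and 1 count in each naive library. It was thus above every naive library in each sham library, as were 13.6% of the tested genes, and peaked in sham 4.

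Ngfr (ENSMUSG00000000120, chromosome 11, 95568818 to 95587735, minus strand) encodes the p75 receptor, which binds all neurotrophins and is made by sympathetic neurons and by Schwann cells after nerve injury. Its levels were 10.3, 8.40, 8.05, 8.66 and 7.01 CPM in sham 1 to 5, against 3.21, 3.26, 2.21, 1.88 and 2.65 CPM in naive 1 to 5. The groups did not overlap: the lowest sham library, sham 5, was above the highest naive library, naive 2, and sham 4 did not stand out. In all tested genes, 13.6% had every sham library above every naive library. The mean was 8.49 ± 1.20 CPM in sham and 2.64 ± 0.607 CPM in naive libraries (SD, n = 5 each). Ngfr rose by a log2 fold change of 1.68 ± 0.17 (SE, edgeR adjusted p = 2.09e-06), and by 1.77 ± 0.20 without sham 4 and sham 5.

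Of 15 ligands and receptors of the neurotrophin and GDNF families, 12 were tested, 3 rose, 3 fell and 6 did not pass, with a median of -0.02. Over all tested genes 17.2% were higher and 15.5% lower. Gfra2, the neurturin receptor, was at 8.35 ± 1.80 CPM in sham and 4.07 ± 0.546 CPM in naive libraries and rose by 1.04 ± 0.17 (edgeR adjusted p = 0.000175), while its ligand Nrtn was lower, at -0.39 ± 0.14 (adjusted p = 0.0385). Brain-derived neurotrophic factor (Bdnf) was at 5.36 ± 0.722 CPM in sham and 7.99 ± 0.818 CPM in naive libraries, a log2 fold change of -0.58 ± 0.13 (adjusted p = 0.00365). Sortilin (Sort1), a co-receptor of p75 for neurotrophin precursors, was also lower, at -0.40 ± 0.09. Ntf5 had the largest fold change that did not pass, 0.66 ± 0.35 (adjusted p = 0.170), and Gdnf, Artn and Ntrk3 were too low to test. With library size alone 0 of these genes were lower, and Bdnf did not pass at -0.31 (edgeR adjusted p = 0.0856, over a range of 8.48e-05 to 0.0856 in 21 alternatives). The median was -0.15 without sham 4 and -0.20 without sham 4 and sham 5. Nrtn did not pass without sham 2, 3 or 5, or without naive 1, 2 or 3 (adjusted p up to 0.108).

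Gap43 (ENSMUSG00000047261, chromosome 16, 42248442 to 42340651, minus strand) encodes a membrane protein of growth cones. It had 11, 15, 27, 84 and 27 counts in sham 1 to 5 and 0, 1, 2, 2 and 1 counts in naive 1 to 5. Its levels were 0.953, 1.04, 1.81, 3.75 and 1.10 CPM in sham 1 to 5, against at most 0.158 CPM in naive libraries. The groups did not overlap, as for 13.6% of all tested genes in this direction, and sham 4 was the highest library. The mean was 1.73 ± 1.18 CPM in sham and 0.0879 ± 0.0684 CPM in naive libraries (SD, n = 5 each). The log2 fold change was 4.17 ± 0.60 (SE, edgeR adjusted p = 6.13e-05), with a normal 95% interval of 3.00 to 5.34. Each naive library held fewer than 3 counts, so the size of this change is uncertain. Without sham 4 the log2 fold change was 3.66 ± 0.48, and without sham 4 and sham 5, 3.71 ± 0.55 (adjusted p = 0.000260). In sham 1, 2 and 3 alone Gap43 averaged 1.27 ± 0.472 CPM (SD, n = 3).

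Sprr1a (ENSMUSG00000050359, chromosome 3, 92483952 to 92485895, minus strand) encodes a small proline-rich protein known from the cornified envelope of skin, from injured neurons, where it promotes axon outgrowth, and from stressed heart muscle cells. Its levels were 11.4, 13.5, 13.6, 24.4 and 16.9 CPM in sham 1 to 5, against 1.19, 1.60, 0, 0.549 and 0.568 CPM in naive 1 to 5. The groups did not overlap, as for 13.6% of all tested genes in this direction. The lowest sham library was far above the highest naive library, naive 2. The mean was 16.0 ± 5.11 CPM in sham and 0.781 ± 0.622 CPM in naive libraries (SD, n = 5 each). The log2 fold change was 4.34 ± 0.42 (SE, edgeR adjusted p = 6.74e-06), and 4.05 ± 0.43 without sham 4 and sham 5. It ranked 13 among the 13622 tested genes by this value, and Gap43 ranked 17. Both genes entered the fit through their sham libraries and had few naive counts, so these ranks partly follow from the filter.

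Other genes linked to peripheral nerve injury and regeneration moved both ways. Of 18 listed, 12 were tested, 5 rose, 2 fell and 5 did not pass, with a median of 0.26. The shares over all tested genes were 17.2% higher and 15.5% lower. Basp1, a growth cone protein related in function to Gap43, was at 39.9 ± 4.68 CPM in sham and 10.1 ± 2.15 CPM in naive libraries, a log2 fold change of 1.99 ± 0.14 (edgeR adjusted p = 3.04e-08). The urokinase receptor Plaur rose by 1.83 ± 0.15 and the gp130 cytokine Lif by 1.24 ± 0.26, and Stat3 and Klf6 rose by 0.29 and 0.40. Gadd45a was lower, at -0.46 ± 0.14, and so was the small heat shock protein Hspb1, at -0.44 ± 0.11. Atf3 and Jun, transcription factors of the neuronal injury response, did not pass at -0.22 ± 0.23 and -0.09 ± 0.12, and Sox11 had the largest fold change among those that did not pass, 0.41 ± 0.44. The neuropeptides Gal, Vip and Adcyap1 were too low to test, as were Flrt3, Cntf and Ecel1. With library size alone 0 of these genes were lower, and the median was 0.16 without naive 2. Without sham 4 and sham 5, 4 were higher and 2 lower, and Klf6 did not pass at 0.37 ± 0.15 (edgeR adjusted p = 0.0979). Klf6 also did not pass without naive 1 and sham 4 (0.34 ± 0.14, adjusted p = 0.0704). With single libraries left out, it did not pass without sham 2, naive 2 or naive 3, nor Gadd45a without sham 2, sham 3, sham 5 or naive 2 (edgeR adjusted p of 0.0509 to 0.0675). Basp1, Plaur, Lif and Stat3 are also made by immune or connective tissue cells.

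Tubb3 (ENSMUSG00000062380, chromosome 8, 123411424 to 123422015, plus strand) encodes the class III beta-tubulin of neurons. Its levels were 4.85, 9.23, 9.39, 11.9 and 10.9 CPM in sham 1 to 5, against 1.43, 1.97, 2.13, 1.65 and 1.70 CPM in naive 1 to 5. The groups did not overlap, as for 13.6% of all tested genes in this direction, and sham 1 was the lowest sham library. The mean was 9.26 ± 2.70 CPM in sham and 1.78 ± 0.278 CPM in naive libraries (SD, n = 5 each). Tubb3 rose by a log2 fold change of 2.38 ± 0.22 (SE, edgeR adjusted p = 7.95e-07), and by 2.16 ± 0.24 without sham 4 and sham 5. Beta-tubulins are similar in sequence, so reads shared with other isotypes make the count uncertain.

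Stmn2 (ENSMUSG00000027500, chromosome 3, 8509360 to 8561606, plus strand) encodes a neuronal stathmin that regulates microtubules in growing axons. Its levels were 2.34, 3.19, 2.08, 4.37 and 3.91 CPM in sham 1 to 5, against 3.33, 2.83, 4.03, 4.00 and 4.80 CPM in naive 1 to 5. The groups overlapped over most of their range. The mean was 3.18 ± 0.985 CPM in sham and 3.80 ± 0.750 CPM in naive libraries (SD, n = 5 each). The log2 fold change of -0.23 ± 0.22 did not pass (SE, edgeR adjusted p = 0.460), and its normal 95% interval ran from -0.67 to 0.20. With library size alone the sign turned, to 0.03. Sham 4 and sham 5 were the highest sham libraries, and in sham 1, 2 and 3 alone Stmn2 averaged 2.54 ± 0.583 CPM (SD, n = 3). Over 21 alternatives its log2 fold change ran from -0.56 to 0.03, and it passed in 0.

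Uchl1 (ENSMUSG00000029223, chromosome 5, 66676091 to 66687234, plus strand) encodes the ubiquitin hydrolase PGP9.5, a general stain for nerve fibres. Its levels were 12.1, 10.8, 10.4, 19.8 and 11.2 CPM in sham 1 to 5, against 11.2, 8.43, 8.53, 10.0 and 7.51 CPM in naive 1 to 5. Sham 4 stood far above the other sham libraries, and naive 1 lay within the sham range. The mean was 12.9 ± 3.94 CPM in sham and 9.14 ± 1.46 CPM in naive libraries (SD, n = 5 each). The log2 fold change was 0.51 ± 0.18 (SE, edgeR adjusted p = 0.0380). Without sham 4 it was 0.33 ± 0.13 and did not pass (edgeR adjusted p = 0.0685, over a range of 0.00126 to 0.138 in 21 alternatives). It also failed to pass without naive 2 (0.48 ± 0.20, adjusted p = 0.0816), naive 3 (0.49 ± 0.20, adjusted p = 0.0814) or naive 5 (0.45 ± 0.19, adjusted p = 0.0871), and without sham 4 and sham 5 together (0.32 ± 0.15, adjusted p = 0.138). The antisense gene Uchl1os overlaps 18.1% of its exon bases. It had 7 counts over the sham and 2 over the naive libraries, and the libraries do not mark strand.

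**Figure D3:**
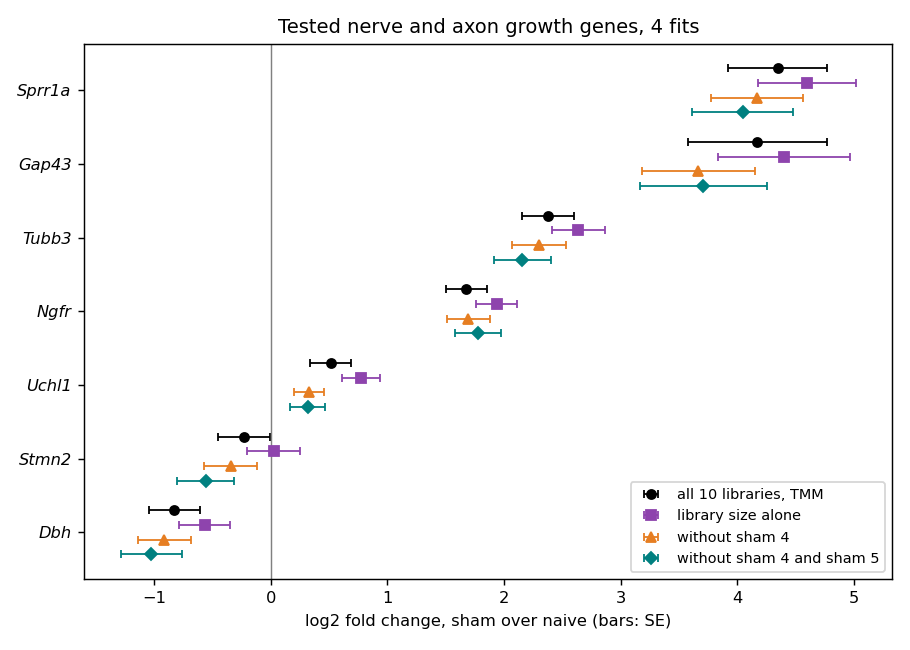
Points give the log2 fold change of sham over naive with its SE for the 7 tested genes, under all 10 libraries with TMM factors, under library size alone, without sham 4, and without sham 4 and sham 5. Sprr1a, Gap43, Tubb3 and Ngfr lie well above 0 in all 4 fits, Uchl1 lies nearer 0 without sham 4, Stmn2 lies at 0.03 with library size alone, and Dbh lies below 0 in all 4.

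Neuronal cytoskeleton and synapse genes outside the set gave 12 tested genes of 18, of which 3 rose, 1 fell and 8 did not pass, with a median of 0.74. The shares over all tested genes were 17.2% higher and 15.5% lower. Stmn4, Rbfox3, Nefm, Prph and Elavl3 entered the fit only with the help of their sham libraries, and all had positive fold changes. The counts called and the median therefore do not by themselves show a shift of the list. Low genes of the other lists could enter in the same way. Dpysl3, a collapsin response mediator of growth cones, was at 125 CPM in sham and 60.5 CPM in naive libraries and rose by 1.05 ± 0.12 (edgeR adjusted p = 8.65e-06). Stmn4, a neuronal stathmin, rose by 1.92 ± 0.38 (adjusted p = 0.00108), with 17, 23, 44, 120 and 55 counts in sham 1 to 5 and 5 to 14 counts in naive libraries. Syn1, of synaptic vesicles, rose by 0.82 ± 0.23 (adjusted p = 0.0113), while the tau gene Mapt was lower, at -0.60 ± 0.07. Rbfox3, a nuclear marker of neurons, had the largest fold change that did not pass, 2.00 ± 0.81 (adjusted p = 0.0810). Its counts were 8, 11, 17, 155 and 33 in sham 1 to 5 and 1 to 12 in naive libraries, so sham 4 alone held most of them. Nefl, Ina, Stmn3, Elavl4, Snap25 and Syt1 were too low to test, and each had its highest count in sham 4. Snap25 had 79 counts there, against 0 in sham 2 and sham 3. The median of 0.74 rested on sham 4 and sham 5: it was 0.42 without sham 4 and 0.15 without both. The list had 3 genes higher and 1 lower in each of these fits. Its genes that were highest in sham 4 moved with the brain markers, and the part of those transcripts in the list was not tested.

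Schwann cell markers gave 10 tested genes of 14, of which 3 rose, 1 fell and 6 did not pass, with a median of 0.02. Among all tested genes 17.2% were higher and 15.5% lower. Their summed level was 92.5 to 125 CPM in sham and 81.5 to 99.5 CPM in naive libraries. Sham 4 gave the 125 CPM, and the other sham libraries reached at most 102 CPM. Pmp22 was the largest part, at a mean of 48.6 CPM in sham and 37.8 CPM in naive libraries. Egr2, a transcription factor of myelination also used by immune cells, rose by 1.17 ± 0.17 (edgeR adjusted p = 7.85e-05). Myelin basic protein (Mbp) rose by 1.00 ± 0.32 (adjusted p = 0.0301), with 523 counts in sham 4 and 89 to 236 in the other sham libraries, against 65 to 84 in naive libraries. Pmp22 rose by 0.36 ± 0.13, and the neuregulin receptor Erbb3 was lower, at -0.46 ± 0.12. The defining marker Sox10 did not pass, at -0.19 ± 0.15. S100b, Cdh19, Gfap and Fabp7 were too low to test. Without sham 4 and sham 5 the median was 0.18, 1 Schwann cell marker was higher, Egr2, and 0 were lower, with Mbp at 0.54 ± 0.20 (edgeR adjusted p = 0.0729) and Pmp22 at 0.28 ± 0.15 (adjusted p = 0.202). Mbp also did not pass without naive 2, 3, 4 or 5, nor Pmp22 without sham 2, 4 or 5 or naive 1, 2 or 3.

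Markers of other ventricular cells moved alongside these genes, where 17.2% of all tested genes were higher and 15.5% lower. All 8 macrophage markers rose, to a summed 987 to 1270 CPM in sham libraries, against 319 to 398 CPM in naive libraries. Of 8 fibroblast markers 7 rose, with sums of 11500 to 21100 CPM in sham and 1120 to 1630 CPM in naive libraries, mostly from Col1a1 and Col3a1. Of 8 heart muscle markers 7 fell, with sums of 46400 to 53000 CPM in sham and 61700 to 63700 CPM in naive libraries. Endothelial markers were lower in 4 of 8, with sums of 1040 to 1150 CPM in sham and 1180 to 1370 CPM in naive libraries. Mesothelial markers were lower in 3 of 8, at 21.6 to 35.9 CPM in sham and 42.2 to 63.5 CPM in naive libraries. Mural cell markers rose in 1 and fell in 1 of 8, at 656 to 844 CPM in sham and 598 to 764 CPM in naive libraries. With library size alone the 8 macrophage and 7 fibroblast markers were again higher, while 2 heart muscle markers were lower, endothelial markers were higher in 1 and lower in 0, mesothelial markers higher in 1 and lower in 2, and mural cell markers higher in 4 and lower in 0. Endothelial markers were lower in 2 without sham 4 and sham 5, and also without any one of sham 2, 3 and 4 or naive 3, 4 and 5. Of 21 alternatives Cdh5 passed in 7 and Tek in 9, both endothelial, and the mesothelial marker Wt1 in 8, so these counts rest on weak calls. The heart muscle marker Tnni3 passed in 11 of the 21, and the fit without the 20 top genes by abundance did not hold it. Heart muscle markers were lower in 6 without any one of sham 1, 2, 3 and 5 or naive 1, 2 and 3. No marker of these lists was at 0 over a group, and the part of these cells in the levels of Sprr1a, Gap43, Tubb3, Ngfr and Dbh was not tested.

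Guidance cues and their receptors, which steer axons and also vessels, gave 18 tested genes of 20, of which 4 rose, 3 fell and 11 did not pass, with a median of -0.08. Among all tested genes 17.2% were higher and 15.5% lower. The repulsive cues Slit2 and Slit3 rose by 0.67 ± 0.13 and 0.73 ± 0.17, and their receptor Robo1 rose by 0.89 ± 0.20 (edgeR adjusted p = 0.00319). Sema3f rose by 0.36 ± 0.10. The semaphorin receptors Plxna4 and Plxna2 were lower, at -0.64 ± 0.11 and -0.55 ± 0.15, as was the ephrin receptor Epha4 at -0.59 ± 0.13. Sema3c had the largest fold change that did not pass, -0.37 ± 0.14. Sema3a, the semaphorin that repels sympathetic axons in the heart, was too low to test, with 55 counts over the sham and 35 over the naive libraries, as was Dcc. With library size alone 6 of the list were higher and 1 lower, Plxna4, and without sham 4 and sham 5, 4 were higher and 2 lower, with a median of 0.02.

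**Figure D4:**
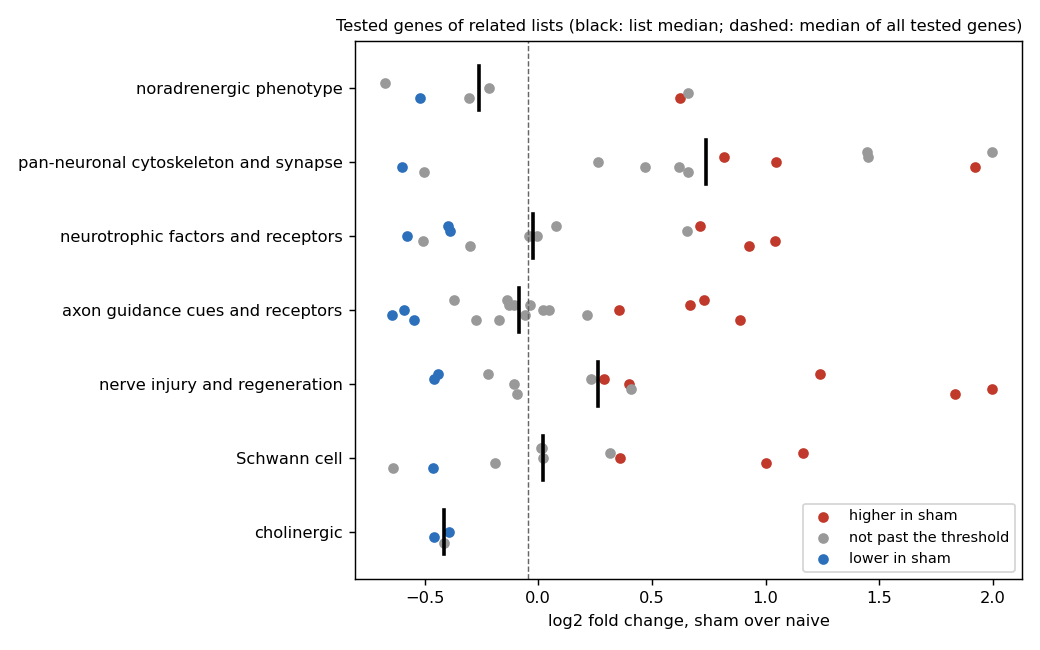
Each point is the log2 fold change of sham over naive of a tested gene in 7 related lists, in red where higher, blue where lower and grey where it did not pass; black bars are list medians and the dashed line is the median of all tested genes, -0.05. The list of neuronal cytoskeleton and synapse genes has the median farthest above that line, 0.74 with all libraries but 0.15 without sham 4 and sham 5, and all 3 tested cholinergic genes lie below it.

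Levels can be set beside each other per kilobase of exon. In sham libraries Sprr1a was highest at 19.8 ± 6.34 CPM per kilobase (SD, n = 5), followed by Uchl1 at 7.88 ± 2.41, Tubb3 at 4.95 ± 1.45, Ngfr at 2.46 ± 0.347 and Dbh at 1.47 ± 0.378. Gap43 stood at 1.14 ± 0.774, Npy at 0.830 ± 0.610, Stmn2 at 0.568 ± 0.176 and Th at 0.0373 ± 0.0530 CPM per kilobase. Among neighbours in this order, only Sprr1a and Uchl1, Ngfr and Dbh, and Stmn2 and Th did not overlap between libraries. In naive libraries the order was Uchl1 at 5.60 ± 0.893, Dbh at 2.65 ± 0.752, Sprr1a at 0.969 ± 0.771, Tubb3 at 0.951 ± 0.149, Ngfr at 0.767 ± 0.176 and Stmn2 at 0.678 ± 0.134 CPM per kilobase, with Gap43 at 0.0577 ± 0.0449, Th at 0.0286 ± 0.0299 and Npy at 0. There only Uchl1 and Dbh, and Stmn2 and Gap43, did not overlap. Dbh was thus the second of the 9 genes in naive and the fifth in sham ventricles.

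The profile of each gene over the 10 libraries was compared with those of all other tested genes, as the mean absolute difference of standardised log2 CPM. That difference was 1.04 to 1.17 for the median gene. The nearest profiles to Gap43 were those of Eno1, Ralb and Pdia5 (0.141 to 0.170), and those nearest to Tubb3 were Kdelr3, Csrp1 and Npc2 (0.0934 to 0.109). Sprr1a lay nearest to AB124611, Arg1 and Clca3a1 (0.122 to 0.163), and Ngfr to Samd14, Bmf and Csf2ra (0.121 to 0.148). For Uchl1 they were Hn1, Bola2 and Rps15 (0.140 to 0.247), for Stmn2 Cnih4, Tpd52l2 and Polr1e (0.232 to 0.272), and for Dbh Actc1 and 1700040L02Rik (0.268 and 0.304). Among the 7 genes themselves, Gap43 and Tubb3 were the nearest pair (0.241), with Sprr1a and Ngfr next (0.261), while Dbh was nearest to Stmn2 (0.509) and 1.32 or more from the other 5. With 10 libraries in 2 groups, such likeness is a description and mostly follows the group difference.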

How the data were processed

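Polyadenylated RNA of 5 sham and 5 naive ventricles was sequenced from single ends without strand information, per the labels' protocols. The authors deposited raw HTSeq counts per Ensembl gene on GRCm38, per the file headers. The submitters' processing notes list TopHat2 2.1.1, Bowtie2, HTSeq, edgeR and DESeq, with no role for any. The sources used here give no annotation release, counting mode or strand setting.

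Of 41264 rows, 574 carried the same counts under an Ensembl identifier already listed and were dropped. Genes kept by filterByExpr (minimum count 10, minimum total 15) were scaled with TMM factors and tested with edgeR 4.0.16's robust quasi-likelihood F test on group alone, in R 4.3.3, with Benjamini-Hochberg adjustment over all tested genes. SEs were obtained by dividing the log2 fold change by the root of its F statistic. The test was also run on simulated data. Coordinates and exon lengths are from GENCODE M21 (GRCm38), matched by Ensembl identifier. Related genes were named by a rule: from each list the 3 of smallest p among those called, the largest fold change among those not called, and the genes too low to test; other list genes named were chosen after their values were seen, as were the examples among the brain markers. Some genes that this rule or the likeness of profiles names are not reported here. The genes and lists were chosen with earlier results of these data known.

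Alternatives were library size alone, upper quartile or RLE factors, DESeq2 1.42.0, limma 3.58.1 voom with sample weights, a filter of 1 CPM in 5 libraries or none, the 20 top genes by abundance removed, a block for the replicate number, each library left out, and naive 1 with sham 4 left out. Leaving out sham 4 with sham 5, and the brain marker list, were added after seeing the data. The labels do not say whether the samples came from separate animals, and p-values measure the spread between these samples. No library repeated another of its group: the lowest chi-square over its degrees of freedom, for any pair, was 9.93.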

Additional observations from a re-analysis of the deposited data

Results flagged for a closer look

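Uchl1 in sham 4, at 19.8 CPM, stood far from the other sham libraries. The nearest of these was at 12.1 CPM, and the gap took 0.817 of the range of the sham group. This was the only such library among 17 groups of 5 checked for the 9 genes, where chance flags about 1 group in 20. Sham 4 also held the most counts of the brain markers, and the part of those transcripts in its Uchl1 level was not tested.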

How the results depend on the processing

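Gap43, Sprr1a, Tubb3 and Ngfr kept their direction and passed in each of 21 alternatives, with log2 fold changes of 3.29 to 4.42, 4.03 to 6.03, 2.16 to 2.64 and 1.57 to 1.94. Dbh passed in 20 (-1.02 to -0.57), failing with library size alone (-0.57), and Uchl1 in 16 (0.32 to 0.77). Uchl1 was at 0.32 without sham 4 and sham 5, and between 0.33 and 0.59 with single libraries left out. Stmn2 passed in 0 (-0.56 to 0.03), and its sign turned with library size alone (0.0264). Single libraries left out gave 4 to 5 genes of the set higher and 1 lower, 16 to 19 genes of the related lists higher (19 with all libraries) and 9 to 15 lower (14 with all libraries, 9 without sham 3 or without sham 5). Library size alone gave 4473 genes higher and 283 lower over the table, 0 genes of the set lower, and 3 of the related lists lower. Over the table limma voom gave 3243 lower, against 2113. Without sham 4 and sham 5, 1389 genes were lower over the table and 8 in the related lists. Apart from the construction of each alternative, the causes were not tested. The labels link same-numbered libraries of the groups by a number alone. Their deviations from the group means correlated above 0.1 in 3 of 5 pairs. The correlations were 0.227, 0.293 and 0.292 for numbers 1, 4 and 5, against 0.035 and 0.008 for numbers 2 and 3. Of 10 libraries, 6 correlated best with their own number. Whether such libraries share a further factor was not tested, and the main fit, on group alone, holds no term for it. The share of genes called was 39.6% with the replicate number as a block and 32.7% without it. With the replicate number as a block, 2592 genes were higher and 2801 lower, and 5 genes of the set were higher and 1 lower, with Dbh at -0.82, Uchl1 at 0.48 and Stmn2 at -0.26. In the related lists Mbp (0.90 ± 0.32, edgeR adjusted p = 0.0646) and Chrm2 (-0.40 ± 0.15, adjusted p = 0.0511) did not pass with the block. Depth limits Th and Npy most, at 8 and 47 counts over the sham and 4 and 0 over the naive libraries.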

Other observations

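Cholinergic genes, which mark parasympathetic nerves and their targets, were mostly low. Of 8 listed, 3 were tested, 0 rose, 2 fell and 1 did not pass, where 17.2% of all tested genes were higher and 15.5% lower. The muscarinic receptor Chrm2, through which vagal acetylcholine slows the heart, was at 28.6 CPM in sham and 37.4 CPM in naive libraries, a log2 fold change of -0.39 ± 0.14 (edgeR adjusted p = 0.0431). Acetylcholinesterase (Ache) was lower, at -0.46 ± 0.15 (adjusted p = 0.0327), and Bche did not pass, at -0.41 ± 0.23. These calls were weak: of 21 alternatives Ache passed in 13 (-0.66 to -0.19) and Chrm2 in 8 (-0.50 to -0.13), and 0 of these genes passed with library size alone or without sham 4 and sham 5. Chat, which makes acetylcholine, had 5 counts over the sham and 9 over the naive libraries, and Slc18a3, Slc5a7, Chrna3 and Chrnb4 were also too low to test.

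Other cornified envelope genes had few counts. Of 10 in the table, 9 were too low to test, with 0 to 3 counts over a group for each. Its near relative Sprr1b had 3 counts over the sham and 0 over the naive libraries. Loricrin (Lor) was the 1 tested member and was lower, at -0.84 ± 0.27 (edgeR adjusted p = 0.0253), with 1.98 CPM in sham and 3.66 CPM in naive libraries. It passed in 14 of 21 alternatives (-1.01 to -0.56).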
